A study of Mus musculus with 4 samples.

Results

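The transcripts of 10 regulators of mouse pluripotency were followed across 4 cultures by bulk RNA sequencing. The genes were Pou5f1, Nanog, Sall4, Zfp42, Prdm14, Tfcp2l1, Tcl1, Fbxo15, Dppa2 and Dppa4, and each was matched to its Ensembl identifier by name. All 10 were found among the 37620 gene identifiers counted, and all 10 lay among the 14263 genes that reached 1 CPM, a count scaled to the size of the library, in at least 1 sample. The study varied the signals given to R1 mouse embryonic stem cells (mESCs) to steer them between cell states, with a trophoblast stem cell (TSC) line alongside.

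The mESC cultures, 3 in all, were of R1 cells, an established line, and each had been kept for 2 days in feeder-free medium with serum. The first, 2i−L, received CHIR99021 at 3 µM, which inhibits the kinase GSK3, and PD0325901 at 1 µM, which inhibits MEK, without added LIF. The second, 2iJ, received the same 2 compounds and a JAK inhibitor at 2 µM, which blocks signalling to STAT3. The third, 2iJ+B−A, received these 3 compounds with BMP4 at 10 ng/ml and an inhibitor of the receptor ALK5 at 10 µM. CHIR99021 and PD0325901 were thus common to every mESC sample, and BMP4 and the ALK5 inhibitor were only ever given together. The TSC sample came from the F4 line, also at day 2, and its medium is not part of its labels. Each condition was 1 sample of 1 line, so no variation between cultures could be measured and no test between conditions was possible. All error ranges given here are 95% intervals that cover counting error only, Clopper-Pearson for ratios and exact Poisson for levels. Comparison with TSCs also set 1 cell line against another.

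Pou5f1 (Oct4), Nanog and Sall4 encode transcription factors at the core of the pluripotency network, where they act with Sox2 on many of the same enhancers. Zfp42 (Rex1), Prdm14 and Tfcp2l1 encode nuclear factors characteristic of the naive state of the pre-implantation epiblast. Tfcp2l1 is a target of LIF and STAT3 signalling, and PRDM14 represses the de novo DNA methyltransferases. Tcl1 encodes a co-activator of the kinase AKT, and Fbxo15 an F-box protein long used as a reporter of the pluripotent state, both known targets of OCT4 and SOX2. DPPA2 and DPPA4 are small SAP-domain proteins that bind chromatin as a pair and are needed for the transcription of genes of the early embryo. In the trophoblast lineage Pou5f1 and Nanog are silenced, whereas factors such as Sox2 and Esrrb are used by both kinds of stem cell.

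Promoter sequence was available for 5 of the 10 genes, in RefSeq on GRCm38.p6, as 7 windows of 250 bases before an annotated start. Pou5f1 and Nanog had 2 windows each, and Zfp42, Tfcp2l1 and Tcl1 had 1 each. Prdm14, Sall4, Fbxo15, Dppa2 and Dppa4 were not in the set. The windows were searched on both strands for the POU motif ATGCAAA, the SOX motif CATTGT, the ESRRB motif AAGGTCA, the KLF motif GGGTGTG and the STAT motif TTCNNNGAA. Only the Nanog and Zfp42 windows held the POU motif, which occurred in 4.12% of the 32851 promoter windows searched. They are shown because OCT4, the product of Pou5f1, binds the POU motif, with each motif in capitals as it reads on the strand of the gene.
Nanog promoter, GRCm38.p6 chr6:122707239-122707488, plus strand: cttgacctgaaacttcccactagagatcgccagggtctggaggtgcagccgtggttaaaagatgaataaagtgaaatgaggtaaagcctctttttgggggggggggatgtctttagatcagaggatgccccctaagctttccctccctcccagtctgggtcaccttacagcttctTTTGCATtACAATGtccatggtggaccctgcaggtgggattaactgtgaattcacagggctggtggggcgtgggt
Zfp42 promoter, GRCm38.p6 chr8:43307010-43307259, minus strand: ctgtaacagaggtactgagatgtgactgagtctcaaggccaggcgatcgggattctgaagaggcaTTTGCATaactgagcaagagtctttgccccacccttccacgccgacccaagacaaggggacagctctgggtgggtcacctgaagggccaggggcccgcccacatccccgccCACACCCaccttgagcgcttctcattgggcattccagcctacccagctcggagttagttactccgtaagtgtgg
In Nanog the POU motif, at −75 to −69 from the start, stood 1 base from a SOX motif at −67 to −62, and the second Nanog window held the same pair. The SOX motif was present in 10.7% of all windows. In Zfp42 the POU motif lay at −185 to −179 and a KLF motif at −74 to −68, the latter a sequence found in 6.93% of windows. The second Pou5f1 window held a SOX motif, and the first Pou5f1 window and those of Tfcp2l1 and Tcl1 held none of the 5. No window of these genes held the ESRRB motif (4.08% of all windows) or the STAT motif (7.02%). The number of CpG dinucleotides ran from 2 in the second Nanog window to 16 in that of Tfcp2l1, against a median of 6 (quartiles 2 and 16) over all windows. These are matches of letters and not measured binding sites.

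Several of these genes have retrotransposed or duplicated copies, and a read that fits 2 places equally well is not counted by STAR. The coding sequence of each gene was therefore aligned to NCBIM37, the build used for the counts. Dppa2 matched 17 other places over at least 30% of its coding length, 6 of them at 90% identity or more. Dppa4 matched 9 places with 2 such near copies, and Zfp42 matched 3 with 1. Pou5f1 matched 15 places, none of them a near copy, but its last 164 coding bases recurred exactly on chromosome 1 at chr1:161223936-161224099. Nanog had no near copy, although stretches of 267 and 247 bases on chromosome X matched it at 97.38% and 97.57%. Prdm14 matched 1 place at 83.77%, and Tfcp2l1, Sall4, Tcl1 and Fbxo15 matched none. Along the transcript, the longest exact match elsewhere was 385 bases for Pou5f1, 381 for Dppa2, 317 for Dppa4, 186 for Zfp42 and 109 for Nanog. For Dppa2, Dppa4, Zfp42 and Nanog the 60 bases with the most differences from a copy within an alignment are shown in pairs. Differing bases are in capitals, to show which bases tell a read of the gene from one of its copy.
Dppa2, coding bases 62 to 121: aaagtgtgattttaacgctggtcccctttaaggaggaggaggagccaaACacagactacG
Dppa2 copy, NCBIM37 chr19:41534364-41534423, plus strand: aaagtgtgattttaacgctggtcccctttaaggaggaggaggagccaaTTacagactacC
Dppa4, coding bases 360 to 419: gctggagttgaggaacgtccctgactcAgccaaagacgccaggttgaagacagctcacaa
Dppa4 copy, NCBIM37 chr2:122040828-122040887, minus strand: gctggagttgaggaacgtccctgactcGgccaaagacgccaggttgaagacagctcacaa
Zfp42, coding bases 11 to 70: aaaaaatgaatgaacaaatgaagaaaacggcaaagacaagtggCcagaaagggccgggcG
Zfp42 copy, NCBIM37 chr15:93510011-93510070, minus strand: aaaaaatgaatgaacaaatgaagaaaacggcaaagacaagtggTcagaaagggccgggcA
Nanog, coding bases 674 to 733: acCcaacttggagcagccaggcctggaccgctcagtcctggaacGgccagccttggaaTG
Nanog copy, NCBIM37 chrX:87128911-87128970, minus strand: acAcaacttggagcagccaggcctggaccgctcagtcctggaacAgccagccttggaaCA
Counted from 1 at the start of the coding sequence, the substitutions from gene to copy were A110T, C111T and G121C for Dppa2, A387G for Dppa4, C54T and G70A for Zfp42, and C676A, G718A, T732C and G733A for Nanog. A read of 126 bases, the length used here, had an exact match elsewhere from 27.98% of the positions along the Dppa2 transcript, 21.28% for Pou5f1, 13.63% for Dppa4 and 7.761% for Zfp42, and from none for the other 6 genes. With 252 bases, the sum of both reads of a pair, the shares were 13.73%, 12.23%, 5.144% and 0%. The levels of Dppa2, Pou5f1, Dppa4 and, less so, Zfp42 may thus be understated in every sample, and how many of their reads came from a copy was not tested.

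**Figure D1:**
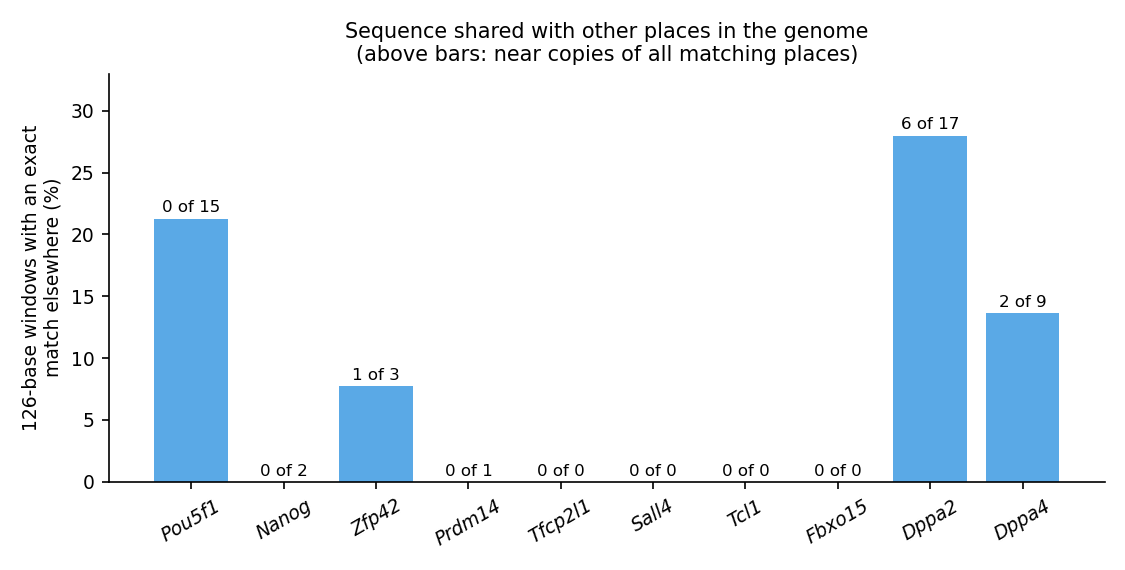
Percentage of 126-base windows along the longest transcript of each gene (vertical axis) that have an exact match at another place in NCBIM37; the numbers above the bars give the near copies (at least 90% identity) among all places that match at least 30% of the coding sequence. Dppa2 stands highest at 27.98%, followed by Pou5f1 at 21.28%, Dppa4 at 13.63% and Zfp42 at 7.761%, and the other 6 genes are at 0.

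The annotated copies themselves drew few counts. Gm9788, the Dppa2 copy on chromosome 19 with 99.34% identity, had 9, 4, 2 and 8 counts in 2i−L, 2iJ, 2iJ+B−A and TSC, where Dppa2 had between 1539 and 4028. The Dppa2 copies Gm12874 and Gm15018, had 0 counts in every sample, which allows up to 3 counts in each. Gm14058, the closest Dppa4 copy, had 12, 11, 10 and 3 counts, and Gm5501 had 3, 3, 5 and 2, against 2304 to 4239 for Dppa4. Counts of these copies thus stayed far below those of the genes in all 4 samples, TSC included. Pairs that fit a gene and its copy equally well are not in these counts, so they do not show how far the copies were transcribed. Of the 6 Dppa2 copies 3 are not annotated, nor is the Zfp42 copy, and reads on them were not counted.

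Between 33913984 and 36964392 read pairs were counted on genes in each sample, so that 3 counts, taken as the limit that a count of 0 allows, corresponded to 0.0799 to 0.0902 CPM. All levels are CPM after TMM scaling, which corrects for differences in RNA composition between libraries, and all differences are log2 ratios of CPM with 0.5 added to each value. The markers of the trophoblast lineage, 14 genes, had summed levels of 403.5, 452.5, 1529.9 and 4127.8 CPM (2i−L, 2iJ, 2iJ+B−A and TSC). Most of the sum in 2iJ+B−A and in TSC was Krt8 (552.6 and 883.5 CPM) and Krt18 (521.4 and 1394.6 CPM). Elf5, which defines TSCs, was at 298.3 CPM in TSC and at 1, 2 and 5 counts in the mESC samples, and none of the 14 was at 0 in any sample. In bulk samples such as these, fewer cells of a type and less RNA per cell cannot be told apart.

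Across the 4 samples, 7 of the 10 genes followed a single order of levels, with 2i−L highest, then 2iJ, 2iJ+B−A and TSC. Over all genes, 48.97%, 50.22% and 49.81% were lower at these steps in turn. The share of all genes with the whole order was not counted, so how unusual 7 of 10 is cannot be said. Pou5f1, Nanog, Zfp42, Prdm14, Tfcp2l1, Tcl1 and Fbxo15 were the 7, and only for Pou5f1 did neighbours in that order, 2i−L and 2iJ, have overlapping intervals. Sall4, Dppa2 and Dppa4 were the exceptions, each with a higher level in 2iJ than in 2i−L. Sall4 was lowest in TSC and Dppa2 was lowest in TSC, but Dppa4 was lowest in 2iJ+B−A. All 10 genes reached 1 CPM in each mESC sample and 8 did in TSC, where Prdm14 and Tcl1 did not. In the unstranded count, which leaves out pairs that overlap genes on both strands, Pou5f1 had 48.94% to 51.06% of the counts used here and Tcl1 had 35.84% to 40.53% in the mESC samples, a gap whose cause was not tested and that was similar in each of these samples.

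**Figure D2:**
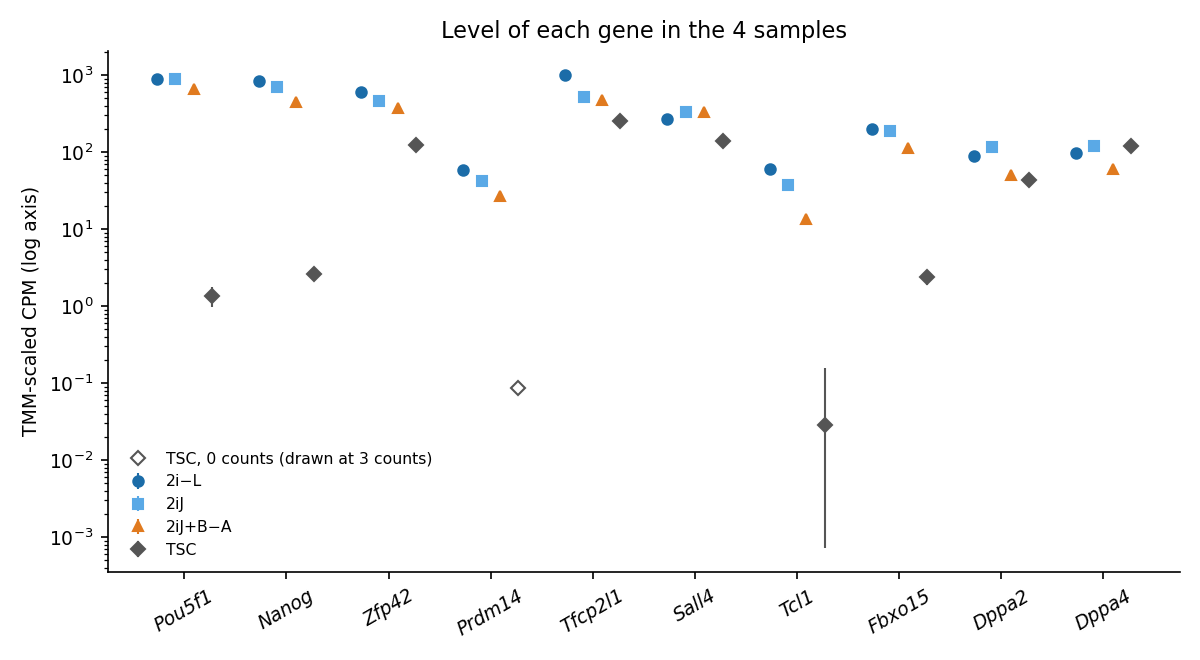
Level of each gene in the 4 samples, in TMM-scaled CPM on a log axis; each point is 1 sample and each bar is the 95% counting interval, drawn where it exceeds the symbol. In TSC, Pou5f1, Nanog and Fbxo15 lie between 1.339 and 2.649 CPM, Tcl1 rests on 1 count and Prdm14 (open symbol) on 0, whereas Zfp42, Tfcp2l1, Sall4, Dppa2 and Dppa4 lie between 43.84 and 253.9 CPM.

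Per kilobase of annotated exon, which allows genes to be compared with each other, the ranking of levels differed between mESCs and TSCs. In 2iJ, Pou5f1 led with 392.2 CPM per kb, followed by Nanog with 312.4 and Zfp42 with 254.9, and Prdm14 was last with 16.42. Pou5f1 also led in 2i−L and 2iJ+B−A, at 398.6 and 291.7 CPM per kb. In TSC the first was Dppa4 with 78.71 CPM per kb, followed by Zfp42 with 68.28 and Tfcp2l1 with 27.40, and Pou5f1 was at rank 8 with 0.5934. The exon length of Pou5f1 is the least certain, because its 7 annotated transcripts together cover 2256 bases and the longest of them 1347, and over that transcript its level in 2iJ was 656.8 CPM per kb.

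The first comparison, 2iJ against 2i−L, differed by the JAK inhibitor alone and concerns the part of residual JAK and STAT3 signalling. None of the 10 genes differed by 2-fold or more. Tfcp2l1 came nearest, at 52.24% of its level in 2i−L, and Tcl1, Prdm14, Zfp42 and Nanog were lower by smaller amounts, while Dppa2, Dppa4 and Sall4 were higher by at most 1.296-fold. Over all 14263 genes, 1.23% were higher and 0.918% were lower by 2-fold or more. The median log2 ratio of the 10 genes was −0.18, against 0.00 over all genes. Below 0 lay 7 of the 10, where 48.97% of all genes did.

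Of the core factors, Pou5f1 (ENSMUSG00000024406, NCBIM37 chr17:35642982-35647721) had 29907 counts in 2i−L and 30381 in 2iJ, or 899.3 and 884.7 CPM. The log2 ratio was −0.02 (interval −0.05 to 0.00), the smallest difference of any of the genes in this comparison. Nanog (ENSMUSG00000012396, chr6:122657507-122664651) had 28100 and 24048 counts, or 845.0 and 700.3 CPM, with a log2 ratio of −0.27 (−0.30 to −0.25). Sall4 (ENSMUSG00000027547, chr2:168573832-168593443) went the other way, from 268.5 CPM in 2i−L to 329.0 in 2iJ, with a log2 ratio of 0.29 (0.25 to 0.33). The core factors thus differed in direction.

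The 3 naive factors were all lower in 2iJ. Tfcp2l1 (ENSMUSG00000026380, chr1:120524522-120581744, annotated under the older name Tcfcp2l1) had 33701 counts in 2i−L and 18178 in 2iJ, or 1013.4 and 529.4 CPM. Its log2 ratio of −0.94 (−0.96 to −0.91) lay just inside the 2-fold line, and 1.129% of all genes had a lower one. Zfp42 (ENSMUSG00000051176, chr8:44380422-44392363), a zinc finger gene, was at 603.1 and 458.7 CPM, with a log2 ratio of −0.39 (−0.42 to −0.36). Prdm14 (ENSMUSG00000042414, chr1:13103538-13117244) was at 58.67 and 42.11 CPM, with a log2 ratio of −0.47 (−0.57 to −0.38).

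Among the remaining 4 genes, Tcl1 (ENSMUSG00000041359, chr12:106454967-106460947) had the lowest ratio, −0.67 on the log2 scale (−0.77 to −0.57), at 60.32 and 37.65 CPM. Fbxo15 (ENSMUSG00000034391) was at 200.0 and 189.0 CPM, with a log2 ratio of −0.08 (−0.13 to −0.03). The neighbours Dppa2 (ENSMUSG00000072419, chr16:48310590-48319836) and Dppa4 (ENSMUSG00000058550, chr16:48283848-48294405) lie on the same strand of chromosome 16 and were both higher in 2iJ. Dppa2 was at 90.48 CPM in 2i−L and 117.3 in 2iJ, with a log2 ratio of 0.37 (0.30 to 0.44). Dppa4 was at 98.90 and 121.7 CPM, with a log2 ratio of 0.30 (0.23 to 0.36).

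**Figure D3:**
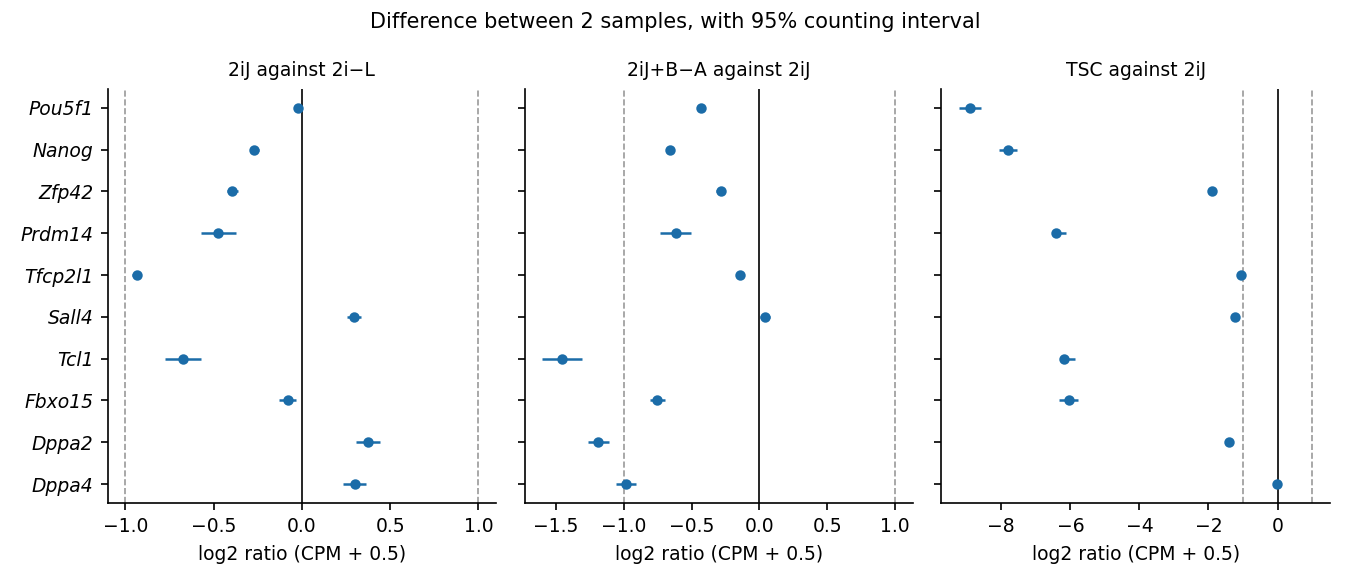
Log2 ratio of each gene (horizontal axis, CPM with 0.5 added) in 3 comparisons, with 95% counting intervals as bars; the solid line marks 0 and the dashed lines mark 2-fold. The genes lie within 2-fold in 2iJ against 2i−L, Tcl1 at −1.45 and Dppa2 at −1.19 pass the line in 2iJ+B−A against 2iJ, and all but Dppa4 pass it in TSC against 2iJ.

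The second comparison, 2iJ+B−A against 2iJ, asked what BMP4 and the ALK5 inhibitor did to cells under JAK inhibition. Sall4 was nearly level and the other 9 genes were lower, where 50.22% of all genes had a log2 ratio below 0. Sall4 was at 102.7% of its 2iJ level. Tcl1 was 2.801-fold lower and Dppa2 was 2.287-fold lower, and Dppa4 was at the 2-fold line with 50.38% of its 2iJ level. Those past 2-fold were 2 of 10, both lower, where 5.81% of all genes were higher and 3.17% were lower by as much. The median log2 ratio was −0.64, against 0.00 over all genes.

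Pou5f1 had 30381 counts in 2iJ and 24721 in 2iJ+B−A, or 884.7 and 658.0 CPM, with a log2 ratio of −0.43 (−0.45 to −0.40). Nanog was at 700.3 and 443.5 CPM, and its log2 ratio was −0.66 (−0.69 to −0.63). Sall4 was at 329.0 and 337.8 CPM, with a log2 ratio of 0.04 (0.00 to 0.07). In 2iJ+B−A, Pou5f1 still had the highest level per kilobase of the 10 genes and Nanog the third, after Zfp42.

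The naive factors differed in extent. Tfcp2l1, the gene with the lowest ratio of 2iJ to 2i−L, had 18178 counts in 2iJ and 17991 in 2iJ+B−A, with a log2 ratio of −0.14 (−0.17 to −0.11). Zfp42 was at 458.7 and 376.8 CPM, with a log2 ratio of −0.28 (−0.32 to −0.25). Prdm14, at 42.11 and 27.31 CPM, had the lowest ratio of the 3 at −0.62 (−0.73 to −0.50).

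Tcl1 had 1293 counts in 2iJ and 505 in 2iJ+B−A, or 37.65 and 13.44 CPM, with a log2 ratio of −1.45 (−1.60 to −1.31). It was the gene with the lowest ratio of the 10, and 1.255% of all genes had a lower one. Fbxo15 was at 189.0 and 112.1 CPM, with a log2 ratio of −0.75 (−0.81 to −0.70). Dppa2 had 4028 counts in 2iJ and 1927 in 2iJ+B−A, or 117.3 and 51.29 CPM, with a log2 ratio of −1.19 (−1.26 to −1.11). Dppa4 had 4180 and 2304 counts, or 121.7 and 61.33 CPM, and its log2 ratio of −0.98 had an interval (−1.06 to −0.91) that spans the 2-fold line. Among the mESC samples the pair was thus highest in 2iJ and lowest in 2iJ+B−A. In this comparison 10 of 14 trophoblast markers were higher by 2-fold or more, where 5.81% of all genes were, with their sum at 452.5 and 1529.9 CPM. Eomes, a transcription factor of TSCs, was lower by more than 2-fold, with a log2 ratio of −1.78 (10.66 and 2.742 CPM), and the 3 other markers were within 2-fold. Of the 8 primitive endoderm markers used, 4 were higher by 2-fold or more, with the sum of all 8 at 45.69 and 78.07 CPM. The part of such cells in the lower levels of the 10 genes was not tested.

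**Figure D4:**
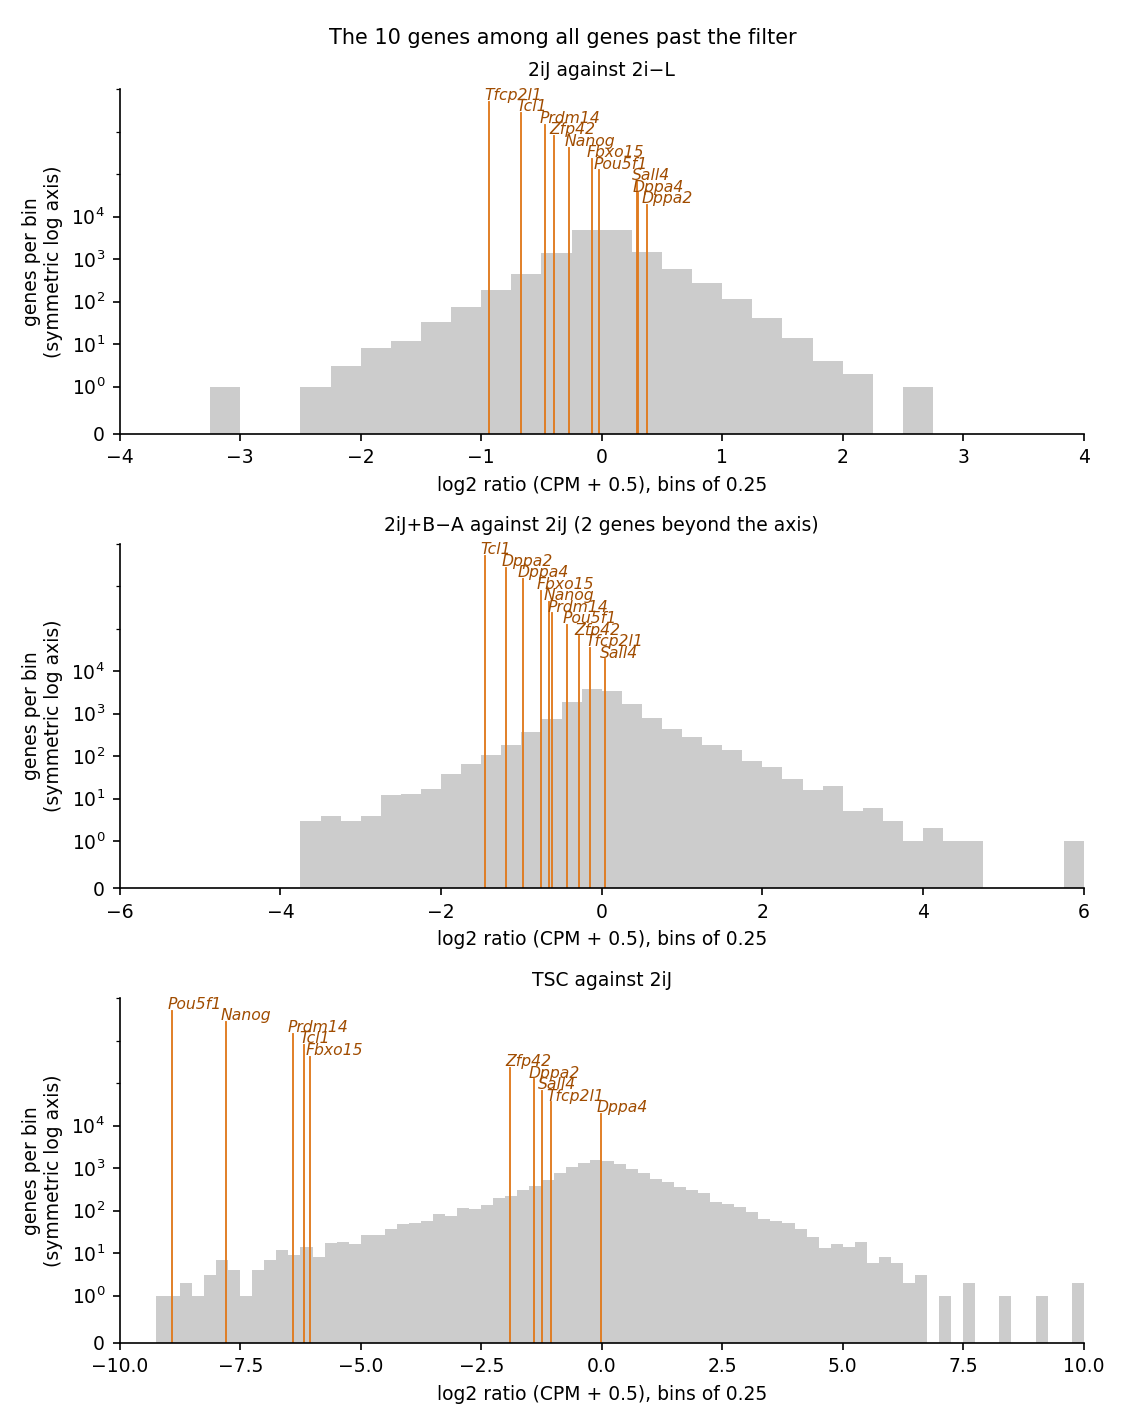
Log2 ratios (CPM with 0.5 added) of all 14263 genes in bins of 0.25 (grey bars, number of genes on a symmetric log axis, the outermost bins of the bottom panel holding any larger values) with the 10 genes as orange lines, for 3 comparisons with different horizontal ranges. The medians of the 10 genes are −0.18, −0.64 and −3.97, where the median of all genes is 0.00 in each panel.

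The third comparison set TSC against 2iJ and asks how these transcripts stand in a stem cell of another lineage. All but 1 of the 10 genes, thus 9, were lower by 2-fold or more, and they lay in 2 ranges. Pou5f1, Nanog, Prdm14, Tcl1 and Fbxo15 were lower by 79.93-fold or more, whereas Zfp42, Dppa2, Sall4 and Tfcp2l1 were lower by 2.085 to 3.732-fold, and Dppa4 was at 99.20% of its 2iJ level. Over all genes, 19.4% were higher and 17.6% were lower by 2-fold or more. The median log2 ratio of the 10 genes was −3.97, against 0.00 over all genes.

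Pou5f1 had 47 counts in TSC against 30381 in 2iJ, or 1.339 CPM (0.9837 to 1.780) against 884.7, which is 660.8-fold lower (496.8 to 899.6). Nanog had 93 counts, or 2.649 CPM (2.138 to 3.245), which is 264.4-fold lower than in 2iJ (215.7 to 327.7). Fbxo15 had 83 counts, or 2.364 CPM, and was 79.93-fold lower (64.38 to 100.5). All of them were above the limit of 3 counts in TSC, at levels under 3 CPM.

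Prdm14 had 0 counts in TSC and 1446 in 2iJ, and set against 3 counts in TSC it was at least 492.8-fold lower. Tcl1 had 1 count in TSC and 1293 in 2iJ, a level 1321.9-fold lower with an interval of 236.8 to 52251.7. The log2 ratios of both genes on the scale with 0.5 CPM added, −6.41 and −6.17, were set by that addition and are not measures of their size. Neither gene was thus above the limit of 3 counts in TSC.

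The other 5 genes had between 1539 and 8915 counts in TSC. Zfp42 had 4315 counts, or 122.9 CPM, with a log2 ratio of −1.90 (−1.94 to −1.85). Tfcp2l1 had 8915 counts, or 253.9 CPM, the most counts of the 10 genes in TSC. Its log2 ratio of −1.06 (−1.10 to −1.02) lay just past the 2-fold line and became −0.98 when libraries were scaled by total counts. Sall4 was at 139.9 CPM, with a log2 ratio of −1.23 (−1.28 to −1.18), and Dppa2 was at 43.84 CPM, with a log2 ratio of −1.41 (−1.49 to −1.33). Dppa4, whose partner was thus lower in TSC, had 4239 counts against 4180 in 2iJ, or 120.7 and 121.7 CPM, with a log2 ratio of −0.01 (−0.07 to 0.05), and the sign turned with total-count scaling, to 0.07. These 5 genes include the 3 that have near copies elsewhere, and the annotated copies had 0 to 8 counts in TSC. Pairs that fit a gene and its copy equally well are not in those counts.

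Against 2iJ+B−A, the mESC sample with more trophoblast marker RNA, TSC was lower by 2-fold or more in 7 of the 10 genes, where 16.4% of all genes were higher and 16.2% were lower by as much. Pou5f1 was 491.5-fold lower (369.5 to 669.1), Nanog 167.4-fold (136.6 to 207.6) and Fbxo15 47.40-fold (38.15 to 59.64). Prdm14, at 0 counts in TSC, was at least 259.4-fold lower by its interval. Tcl1, with 1 count against 505, was 471.9-fold lower (84.32 to 18675.9). Zfp42 was 3.066-fold lower and Sall4 was 2.415-fold lower. The 3 genes within 2-fold were Tfcp2l1 with a log2 ratio of −0.91 (−0.95 to −0.88), Dppa2 with −0.22 (−0.32 to −0.13) and Dppa4, which was higher in TSC, with 0.97 (0.90 to 1.04). This comparison shares its TSC sample with the one before, so the similarity of their values is not a second observation.

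Dppa2 and Dppa4 were next set beside genes of the early embryo that depend on them, a list of 16 names that gave 10 genes. The family is Zscan4, expressed in rare mESCs that resemble the 2-cell embryo, with Usp17l, Tdpoz and Zfp352 genes. All 10 together had summed levels of 17.14, 46.39, 3.727 and 0.9970 CPM (2i−L, 2iJ, 2iJ+B−A and TSC). Zscan4d, with the most counts, had 134, 434, 29 and 6 counts in that order of samples, or 4.029, 12.64, 0.7719 and 0.1709 CPM. Zscan4c had 132, 350, 28 and 8 counts, and Usp17lb had 40, 128, 8 and 3. Tdpoz1 was at 0 in all samples and Tdpoz3 at 0 in TSC. The 8 genes that passed 1 CPM did so in 2iJ and none did in 2iJ+B−A or TSC, so that their number says nothing further about direction. Of the mESC samples, 2iJ thus had the highest and 2iJ+B−A the lowest level of both Dppa genes and of this summed set, while in TSC the set was lowest with Dppa4 at its 2iJ level. The Zscan4 genes are nearly identical to each other, and their individual counts are uncertain.

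**Figure D5:**
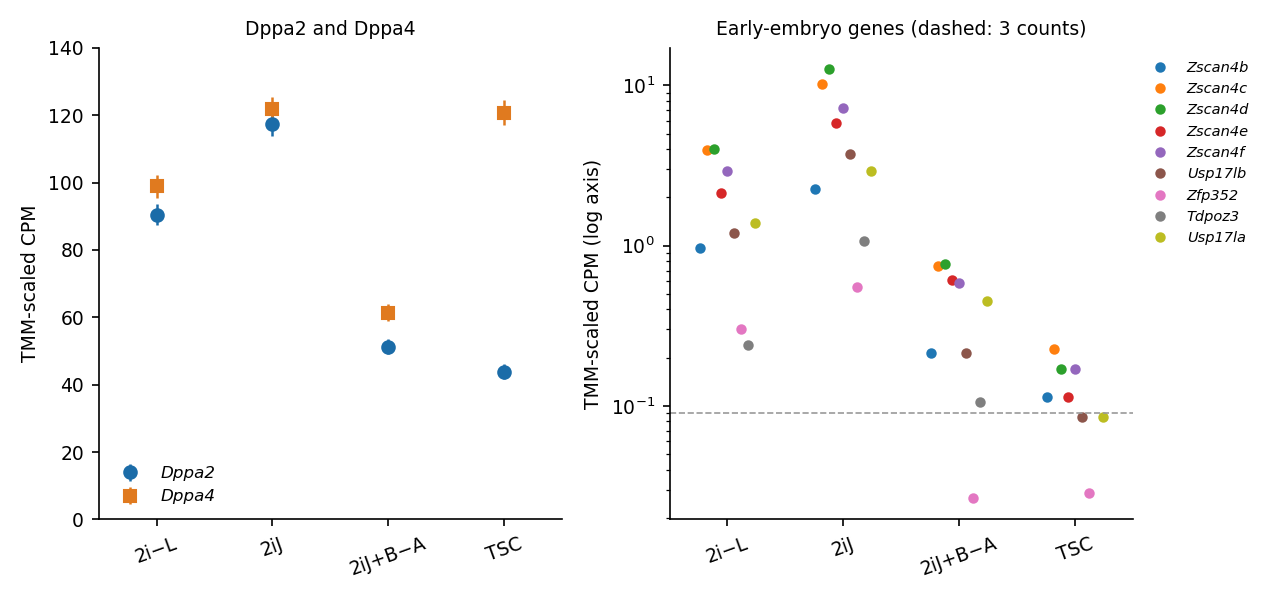
Left, level of Dppa2 and Dppa4 in TMM-scaled CPM in the 4 samples with 95% counting intervals; right, level of 9 early-embryo genes on a log axis (values of 0 not drawn, the dashed line marks 3 counts). Both Dppa genes are higher in 2iJ than in the other mESC samples, Dppa4 but not Dppa2 is as high in TSC, and Zscan4d goes from 12.64 CPM in 2iJ to 0.7719 in 2iJ+B−A and 0.1709 in TSC.

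Prdm14 was set beside 5 genes of DNA methylation, among them the de novo methyltransferase genes that PRDM14 represses. In 2iJ, where Prdm14 was at 71.78% of its 2i−L level, Dnmt3l, the cofactor of de novo methylation, was higher with a log2 ratio of 1.67, at 36.96 and 118.8 CPM. Dnmt3b and Dnmt3a had log2 ratios of 0.72 and 0.37. In 2iJ+B−A against 2iJ, where Prdm14 was lower again, Dnmt3a was lower with a log2 ratio of −1.21 and Dnmt3l had −0.47, while Dnmt3b had 0.43. In TSC, with Prdm14 at 0 counts, Dnmt3b was at 460.8 CPM, a log2 ratio of 2.37 against 2iJ, and Dnmt3a had a log2 ratio of −1.26. Past 2-fold were 1 of 5 higher in the first comparison, where 1.23% of all genes were, and 1 of 5 lower in the second, where 3.17% were. In the third, 1 of 5 was higher and 1 of 5 lower, where 19.4% of all genes were higher and 17.6% were lower. The 3 de novo genes were thus above 0 together in the first comparison and on both sides of 0 in the others. Uhrf1 (−0.40, 0.53 and −0.44) and Dnmt1 (0.0072, −0.0033 and −0.50) were within 2-fold in all 3 comparisons. A link between the level of Prdm14 and those of these genes was not tested.

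The 10 genes were then set beside 34 other pluripotency factors. In 2iJ against 2i−L, 1 of the 34 was lower by 2-fold or more, Klf4, with a log2 ratio of −1.03, and none was higher. Over all genes, 0.918% were lower and 1.23% were higher by as much. In 2iJ+B−A against 2iJ, 4 were lower, among them Tdgf1 (−1.85), a co-receptor of Nodal, Tet1 (−1.30), which oxidises methylated cytosine, and Dppa5a (−1.05), and 2 were higher, Klf4 (1.17) and Tbx3 (1.12), both naive-state transcription factors. In that comparison 3.17% of all genes were lower and 5.81% were higher by 2-fold or more. The median log2 ratio of the 34 there was −0.45, against −0.64 for the 10 genes. In TSC against 2iJ, 26 were lower and 2 higher, where 17.6% of all genes were lower and 19.4% were higher. The median of the 34 was −1.89. Fgf4, Tdgf1, Dppa5a and Nr5a2 had the lowest log2 ratios on the scale with 0.5 CPM added, with levels from 0.02848 to 5.982 CPM in TSC. Their order depends on that addition, since Fgf4 had 1 count in TSC and Gdf3, which ranked behind them, had 2, and Tdh was at 0. Sox2, the partner of OCT4, had a log2 ratio of −1.59 and Esrrb one of −0.94, at 153.6 and 247.6 CPM in TSC, closer to the range of Zfp42 and Sall4 than to that of Pou5f1. The higher genes were Utf1 (1.39) and Gbx2 (1.32).

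Markers of other cell types that a culture could hold were also summed, over lists of different lengths, so the sums do not rank the cell types. The 8 primitive endoderm markers used summed to 38.91 to 78.07 CPM and the 7 mesoderm markers to 5.244 to 16.19 CPM over the 4 samples. The 6 markers of the post-implantation epiblast had summed levels of 123.3, 189.5 and 178.1 CPM in the mESC samples and 493.0 in TSC, where 460.8 CPM were Dnmt3b and Fgf5 was at 0. The 8 fibroblast markers summed to 89.31, 177.9 and 279.9 CPM in the mESC samples, most of it Acta2 in the latter 2, and to 3.532 CPM in TSC, with Col1a2, Dcn and Lum at 0. The part of these differences in the levels of the 10 genes was not tested.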

How the data were processed

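The 4 samples were sequenced as poly-A-selected, strand-specific libraries (NEBNext Ultra Directional) in paired reads of 126 bases. Per the labels and the study's methods, the authors called bases with CASAVA 1.8.2, trimmed reads with TrimGalore and cutadapt at a quality cutoff of 20, and aligned them to NCBIM37 with STAR 2.4.2a. The deposited files hold STAR's raw counts of read pairs per gene in an unstranded and 2 stranded columns, and the batch correction of the study is not in them. The column of the reverse strand was used, which held 29.10 to 32.11 times the counts of the opposite one, and STAR's summary rows were left out. Of the listed pairs 82.23% to 83.58% were on genes and 6.722% to 7.006% mapped to several places. The annotation release is not given in the sources used here.

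The 10 genes and the other lists (121 names, 116 found) were chosen with earlier results of these data known. Among the names found, Dab2, Pou3f1 and Mtcp1 matched 2 identifiers each and were left out, and Usp17la and Dub1 were 1 gene, counted once. Identifiers were matched through the NCBIM37 annotation (37205 of 37620) and RefSeq synonyms. TMM factors (edgeR 4.0.16 in R 4.3.3) ran from 0.9692 to 1.0352. Genes at 1 CPM or more in at least 1 sample were kept, 0.5 CPM was added before log2 ratios, and a difference was counted at 2-fold or more. Intervals came from scipy 1.17.1, and no p-value was computed because each condition has 1 sample. A count of 0 was taken to allow 3 counts. Copies were found with blastn 2.17.0, joining hits within 5000 bases. The ratio calculation was tested on simulated data.

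Named were all 10 genes, their annotated near copies, per list and comparison up to 4 genes with the largest log2 ratios and genes at 0, and for each of the 10 genes the 2 with the most similar pattern, of which some are not reported here. Genes named from the lists outside that rule, such as Sox2, Esrrb and Elf5, were chosen after their values were seen. Alternatives were DESeq2 1.42.0 size factors, total counts, unstranded counts, a pseudocount of 0.1 or 2 CPM, no filter, a cutoff of 1.5 or 4-fold, counts with near copies added, and the longest transcript as length.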

Additional observations from a re-analysis of the deposited data

How the results depend on the processing

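No paired analysis was possible because each condition has 1 sample, and for the same reason no sample could be left out. Of 72 alternative counts of genes past the cutoff, 67 stayed within 1.5 times the value reported. The 5 others followed from the cutoff itself. At 1.5-fold, 2 genes were lower in 2iJ than in 2i−L (3.91% of all genes), 6 were lower in 2iJ+B−A than in 2iJ (8.72%), and 1 was higher in TSC than in 2iJ+B−A (26.5%). At 4-fold, 0 were lower in 2iJ+B−A than in 2iJ (0.407% of all genes), and 5 were lower in TSC than in 2iJ (7.57%). Of 240 alternative log2 ratios, 33 moved beyond their counting interval and none that passed 2-fold changed direction. With another pseudocount Prdm14 ran from −8.72 to −4.46 and Tcl1 from −8.20 to −4.29 against 2iJ. With total-count scaling Tfcp2l1 lost its place past 2-fold in TSC against 2iJ (−0.98) and Dppa4 changed sign (0.07). The unstranded column held 48.94% to 51.06% of the stranded counts of Pou5f1 and 35.84% to 40.53% of those of Tcl1 in the mESC samples, 96.51% to 97.11% of Sall4 and about all of the other 7, and the cause was not tested. Depth limits the TSC values of Prdm14 and Tcl1, and variation between cultures could not be measured.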

Other observations

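Prdm1 (Blimp1), a transcriptional repressor of the germ line and a relative of Prdm14, had levels of 48.65, 53.64, 5.137 and 1.994 CPM (2i−L, 2iJ, 2iJ+B−A and TSC), with a log2 ratio of −3.26 between 2iJ+B−A and 2iJ. Over 10 relatives of the POU, PRDM and FBXO genes the median log2 ratio in that comparison was −0.33, and 2 were higher and 5 lower by 2-fold or more in TSC against 2iJ, where 19.4% of all genes were higher and 17.6% were lower. Of the 8 relatives of Sall4 and Tfcp2l1, Grhl1 was higher in 2iJ+B−A than in 2iJ, with a log2 ratio of 1.33. In TSC against 2iJ, 3 of the 8 were higher and 2 lower by 2-fold or more, beside the same shares of all genes. Grhl1, Grhl2 and Grhl3 were the higher ones (1.58, 1.35 and 1.14), unlike Tfcp2l1. The lower ones, Sall1 (−3.43) and Sall3 (−2.64), were lower by more than Sall4. Sall2 (0.70), Tfcp2 (0.50) and Ubp1 (−0.63) were within 2-fold. Of 5 Tcl1b genes, relatives of Tcl1, 1, Tcl1b2, passed 1 CPM in any sample, with 14, 36, 15 and 0 counts.

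For each of the 10 genes, the 2 most similar of 10251 genes were found by the largest of the absolute differences in 3 log2 ratios, over 4 samples. This largest difference was 0.0555 between Gpr19 and Sall4, 0.1521 between Dnmt3a and Dppa2, 0.1189 between Tgif2 and Dppa4, and 0.2595 between Gpt2 and Tfcp2l1. Ckb and Rcor2 differed from Zfp42 by 0.1378 and 0.1424. For Pou5f1, Nanog, Prdm14, Tcl1 and Fbxo15, which were under 3 CPM in TSC, the similar genes were also near 0 there. The ratios of TSC to 2iJ of those similar genes were then set largely by the 0.5 CPM added, and no likeness is given here.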
